A study of Rattus norvegicus with 14 samples.

Results

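Expression of 5 genes, Gucy2f, Adgrg7, Syt10, Taar1 and Zbtb40, was followed in the rat lateral prostate, where all 5 stood far higher under testosterone plus estradiol than in any other group. They are 5 of 16134 genes with a named probe set on the array, and each has 1 probe set, that of Adgrg7 being listed under the older symbol Gpr128. The genes were picked by name for their high values in the T+E2 group relative to Control, so their levels in that group are a description and carry no test. Each of the 14 arrays measured the lateral prostate of 1 male Noble rat aged 48 weeks. The 4 Control rats carried empty capsules, and the treated rats carried Silastic capsules for 32 weeks. The T+E2 group (n = 4) received 30 mg testosterone with 15 mg estradiol, the T+low BPA group (n = 3) 30 mg testosterone with 15 mg bisphenol A, and the T+high BPA group (n = 3) 30 mg testosterone with 320 mg bisphenol A. All treated groups therefore share testosterone, and no group on testosterone alone was analysed here. Bisphenol A (BPA) is a plastic monomer with weak estrogenic activity, and the series asked for its transcriptional signature in this lobe, in which Noble rats develop lesions under combined sex hormones.

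The 5 genes belong to different protein classes that are best known outside the prostate. Gucy2f encodes a membrane guanylyl cyclase of photoreceptors, which makes the cyclic GMP that keeps the light-sensitive channels open. Taar1 encodes a G protein-coupled receptor for trace amines such as tyramine and phenylethylamine, studied mainly in monoamine neurons. Adgrg7 encodes an orphan adhesion receptor known in the mouse from intestinal epithelium. Syt10 encodes a synaptotagmin, a vesicle protein that senses calcium and, in mouse olfactory neurons, serves the release of an insulin-like growth factor. Zbtb40 encodes a nuclear protein with a BTB domain and zinc fingers.

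The values are log2 expression summarised by RMA, a method that corrects background, normalizes between arrays and combines the probes of a probe set. A difference of 1 on this scale is a change of 2-fold, and levels of different genes are not compared because probe sets differ in brightness. Array medians lay between 6.38 and 6.46. The lobe's own secretory gene Pbsn (probasin) was at 12.12 to 13.07 on all arrays, and Tgm4, a prostate transglutaminase, was at 11.17 to 12.18 in Control and 6.84 to 11.96 in the treated groups. Levels of ventral prostate and skeletal muscle genes differed widely between arrays. Whether other tissue was carried along or expression changed was not tested. A list of 8 ventral prostate markers was averaged. It also holds Pbsn, which is in the lateral and dorsal list too, and Rnase9, which was low (4.51 in Control). The list mean was 11.17 in Control replicate 4 and 11.18 in T+E2 replicate 2. It was 6.92 to 7.19 on the remaining Control and 7.55 to 8.58 on the remaining T+E2 arrays. The same mean spanned 7.99 to 8.18 (T+low BPA) and 9.93 to 11.32 (T+high BPA). The mean of 15 skeletal muscle genes ran from 6.29 to 9.67 over the arrays. Control replicate 4 correlated with the other Control arrays at 0.956 to 0.964 across genes, whereas those correlated among themselves at 0.986 to 0.994. Since these are whole-tissue RNA samples, more cells of a type and more RNA per cell cannot be told apart.

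Gucy2f had the widest separation of the 5 genes. It was at 4.04, 3.99, 3.97 and 4.11 on the Control arrays and at 10.49, 9.79, 10.10 and 10.09 on the T+E2 arrays. The T+low BPA arrays were at 4.09, 3.90 and 3.82, and the T+high BPA arrays at 3.82, 3.94 and 3.69. The T+E2 arrays thus lay apart from all 10 others, and the lowest of them exceeded the highest other array by 5.68. The Gucy2f means of 10.12 ± 0.29 (T+E2) and 4.03 ± 0.06 (Control, SD, n = 4 each) gave a 68.2-fold ratio, and the ratio to T+low BPA was 72.7 and to T+high BPA 78.9. A setting added after the data were seen left out Control replicate 4 and T+E2 replicate 2, the arrays of these 2 groups high in ventral prostate genes. It moved none of the 5 differences T+E2 minus Control by more than the spread between arrays. The T+high BPA arrays, also high in these genes (list mean 9.93 to 11.32), were kept.

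Taar1, the trace amine receptor, had the most uniform values in T+E2. Its T+E2 arrays were at 8.67, 8.63, 8.61 and 8.64, a range of 0.06. Its Control arrays were at 5.35, 4.92, 4.56 and 5.62, a range of 1.07, so the spread was far wider where the gene was low. The T+low BPA arrays were at 4.74, 5.04 and 4.52 and the T+high BPA arrays at 4.56, 4.47 and 4.68. The group means were 8.64 ± 0.03 in T+E2 and 5.11 ± 0.47 in Control (SD, n = 4 each), an 11.5-fold ratio, and T+E2 overlapped with no other group.

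Adgrg7, the adhesion receptor, was at 9.68, 10.10, 10.16 and 9.67 in T+E2. In Control it was at 7.04 in replicate 1 and at 5.11, 5.02 and 4.79 in replicates 2 to 4. Control replicate 1 was therefore the highest of the 10 arrays outside T+E2, and still 2.63 below the lowest T+E2 array. The T+low BPA arrays were at 4.77, 5.24 and 5.25 and the T+high BPA arrays at 4.73, 4.57 and 4.78. The means were 9.90 ± 0.26 in T+E2 and 5.49 ± 1.04 in Control (SD, n = 4 each), a 21.3-fold ratio. Without Control replicate 1 the Control mean was 4.97 ± 0.16 (SD, n = 3) and the ratio 30.5.

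Syt10, the vesicle calcium sensor, was at 9.06, 9.49, 9.39 and 9.54 in T+E2 and at 4.88, 5.05, 5.61 and 5.43 in Control. The T+low BPA arrays were at 5.04, 5.57 and 5.25 and the T+high BPA arrays at 5.16, 4.89 and 5.13, all within the Control range. The Syt10 means of 9.37 ± 0.22 (T+E2) and 5.24 ± 0.33 (Control, SD, n = 4 each) gave a 17.5-fold ratio. Replicate 1 was the lowest Syt10 array in both of these groups, while the same T+E2 array was the highest for Gucy2f.

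Zbtb40, the zinc finger gene, had the smallest difference and the widest spread within T+E2. T+E2 replicates 1 and 2 were at 8.66 and 8.77 and replicates 3 and 4 at 9.97 and 9.69. Control was narrow, at 6.45, 6.42, 6.33 and 6.44, T+low BPA was at 6.08, 6.45 and 6.26 and T+high BPA at 6.23, 6.43 and 6.11. The means were 9.27 ± 0.66 in T+E2 and 6.41 ± 0.06 in Control (SD, n = 4 each), a 7.27-fold ratio, and the lowest T+E2 array exceeded the highest other array by 2.20. The order of the 4 T+E2 arrays differed from gene to gene: replicate 1 was highest for Gucy2f and Taar1, replicate 3 for Adgrg7 and Zbtb40 and replicate 4 for Syt10.

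**Figure D1:**
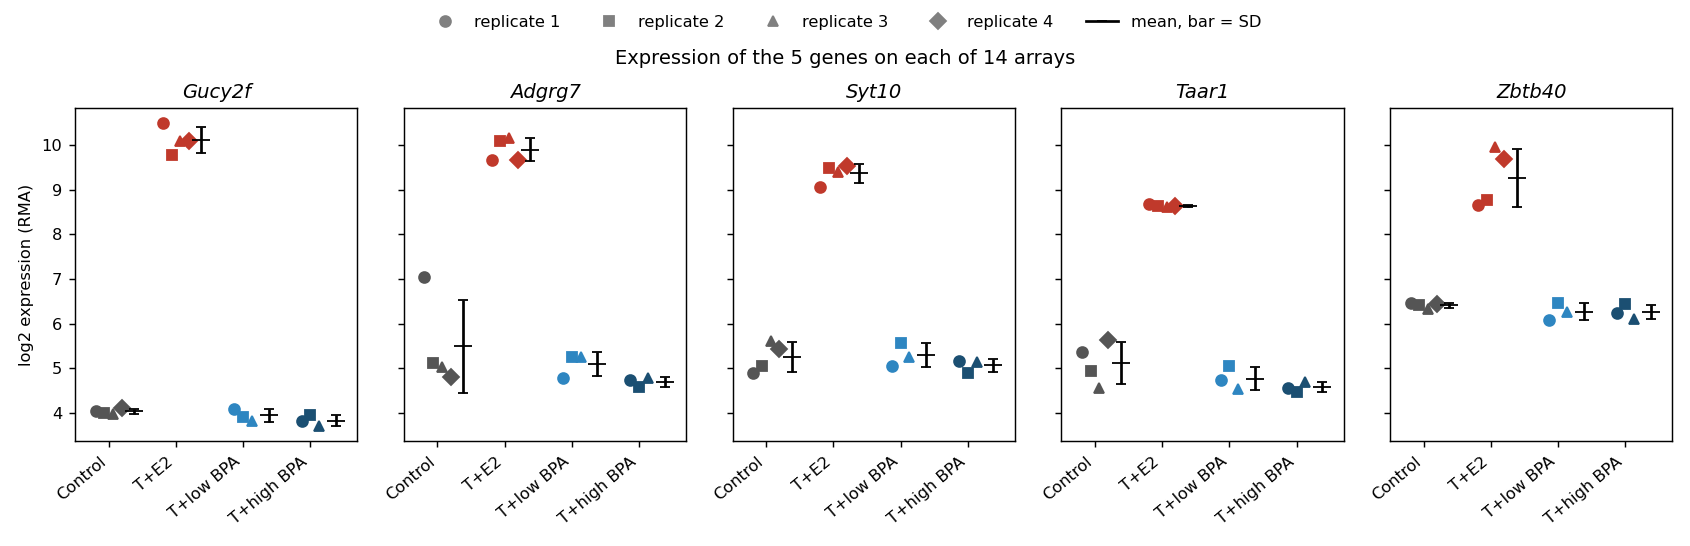
Log2 expression (y axis) of the 5 genes on every array, by group (x axis), with the marker shape giving the replicate and the black bars the mean ± SD. The T+E2 arrays lie above the other 10 arrays for each gene, and Control replicate 1 lies at 7.04 for Adgrg7.

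Ordered by the step from the highest other array to the lowest T+E2 array, Gucy2f, Syt10, Taar1 and Adgrg7 took places 1 to 4 of 16134 genes and Zbtb40 place 8. The steps were 5.68, 3.45, 2.99, 2.63 and 2.20. The genes in places 5 to 7, named after their values were seen, were Cyp17a1 (2.31), an enzyme of androgen synthesis, Clca1 (2.28), a goblet cell secretory protein, and Ccl25 (2.26), which encodes a chemokine made in the gut and thymus. A step above 0 was found for 347 genes and one above 2 for 8. Because the 5 genes were picked for their high values in T+E2, these places describe them and test nothing.

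The same genes were compared with Control in the BPA groups, where testosterone was combined with BPA in place of estradiol. None of the 5 genes passed the test in either group, and at an unadjusted p below 0.05 there were 0 in T+low BPA and 1, Taar1, in T+high BPA. In T+low BPA minus Control, 0 of 5 were called at a limma adjusted p below 0.05, where 0.0186% of all genes were called in either direction. The differences ran from -0.40 for Adgrg7 to 0.04 for Syt10, with adjusted p of 0.701 to 0.965. For Gucy2f the difference was -0.09 with a 95% interval of -0.38 to 0.19, and for Syt10 the interval was -0.34 to 0.43. In T+high BPA minus Control, 0 of 5 were called, against 0.0062% of all genes, and all 5 differences were below 0. Taar1 differed by -0.54 (95% interval -0.96 to -0.12, unadjusted p = 0.0148, limma adjusted p = 0.466), Adgrg7 by -0.79 (-1.64 to 0.05, adjusted p = 0.594), Gucy2f by -0.21 (-0.50 to 0.07, adjusted p = 0.682), Syt10 by -0.18 (-0.56 to 0.20, adjusted p = 0.808) and Zbtb40 by -0.15 (-0.69 to 0.39, adjusted p = 0.9). Taar1 was lower in 3 of 3 T+high BPA arrays than the Control mean of 5.11, but T+high BPA replicate 3, at 4.68, lay above Control replicate 3, at 4.56. Both comparisons share the Control arrays with the one on which the genes were picked. So few genes of any kind were called in them that 0 of 5 does not set these genes apart. Without Control replicate 1, the array with the high value, the difference of Adgrg7 in T+low BPA minus Control turned to 0.11 (limma adjusted p = 0.841) and that of Adgrg7 in T+high BPA minus Control was -0.28 (adjusted p = 0.808).

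T+high BPA minus T+low BPA takes its group means from no T+E2 or Control array. The estimate of spread in the fit still rests on all 14 arrays. Whether the BPA values also had a part in the choice of the genes is not known. The differences were -0.39 for Adgrg7 (95% interval -1.29 to 0.51), -0.22 for Syt10 (-0.63 to 0.19), -0.19 for Taar1 (-0.64 to 0.26), -0.12 for Gucy2f (-0.42 to 0.19) and -0.01 for Zbtb40 (-0.58 to 0.57). By limma 0 of 5 were called (adjusted p = 0.6 to 0.994) and 0 were at an unadjusted p below 0.05, with 0% of all genes called and 2252 genes at an unadjusted p below 0.05. The highest upper bound among the 15 intervals of the BPA comparisons was 0.57, for Zbtb40, whose T+E2 difference of 2.86 was the smallest of the 5.

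**Figure D2:**
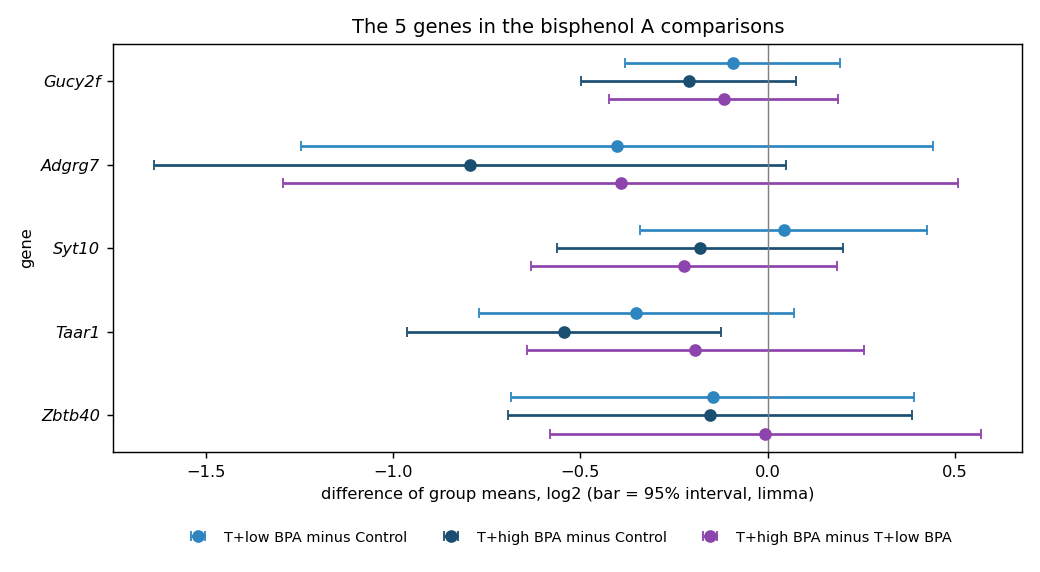
Differences of group means on the log2 scale (x axis) for each gene (y axis) in T+low BPA minus Control, T+high BPA minus Control and T+high BPA minus T+low BPA, with limma's 95% intervals as bars. The interval of Taar1 in T+high BPA minus Control, -0.96 to -0.12, is the only one of the 15 that does not include 0.

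Since the 5 genes are high on the same 4 arrays, the sequences at their annotated starts are shown for the 4 genes that the RefSeq promoter table of assembly GRCr8 holds, from 250 bases before to 50 bases after the start, 5′ to 3′ on the gene's strand. Capitals mark the letters GGTCA on either strand (TGACC when read on the other strand), the core of an estrogen response element arm, and in Zbtb40 a direct repeat of it.
Gucy2f, chrX:110604968-110605267, minus strand: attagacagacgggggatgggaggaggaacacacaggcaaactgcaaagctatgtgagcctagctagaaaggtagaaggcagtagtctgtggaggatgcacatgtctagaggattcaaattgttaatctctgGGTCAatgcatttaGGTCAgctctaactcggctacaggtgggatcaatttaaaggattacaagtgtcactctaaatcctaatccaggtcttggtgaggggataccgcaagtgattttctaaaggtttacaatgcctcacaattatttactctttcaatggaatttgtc
Adgrg7, chr11:57282654-57282953, plus strand: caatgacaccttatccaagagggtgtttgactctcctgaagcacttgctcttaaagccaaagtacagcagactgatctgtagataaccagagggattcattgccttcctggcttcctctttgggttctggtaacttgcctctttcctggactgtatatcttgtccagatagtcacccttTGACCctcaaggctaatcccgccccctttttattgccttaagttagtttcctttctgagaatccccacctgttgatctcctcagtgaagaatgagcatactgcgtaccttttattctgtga
Taar1, chr1:23337927-23338226, minus strand: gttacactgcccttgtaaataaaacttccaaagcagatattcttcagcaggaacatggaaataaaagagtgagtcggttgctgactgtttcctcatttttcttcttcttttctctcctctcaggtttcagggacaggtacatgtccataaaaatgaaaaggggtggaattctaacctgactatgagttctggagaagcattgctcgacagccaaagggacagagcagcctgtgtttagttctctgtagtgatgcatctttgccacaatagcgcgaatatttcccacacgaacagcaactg
Zbtb40, chr5:154567124-154567423, minus strand: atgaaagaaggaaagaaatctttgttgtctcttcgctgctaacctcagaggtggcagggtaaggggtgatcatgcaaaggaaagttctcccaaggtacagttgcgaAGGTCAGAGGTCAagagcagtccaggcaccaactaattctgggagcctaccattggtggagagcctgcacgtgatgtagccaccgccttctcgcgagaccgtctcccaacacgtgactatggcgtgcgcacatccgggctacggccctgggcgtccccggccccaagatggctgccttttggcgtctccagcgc
Syt10 was not among the matched entries. All motifs were searched on both strands. The full estrogen response element, GGTCA and TGACC with 3 bases between them, was found in 0 of the 4 windows and in 0.0269% of all 33469. The full androgen response element, AGAACA and TGTTCT with 3 bases between them, was found in 0 and in 0.0149%. The core GGTCA was found 2 times in Gucy2f, 1 time in Adgrg7, 2 times in Zbtb40 and 0 times in Taar1, and 40.5% of all windows hold it. The androgen element arm TGTTCT (20.7% of windows) and the TATA box letters TATAAA (14.2%) were in none of the 4. In Zbtb40 the 2 copies overlap a direct repeat of AGGTCA with 1 base between its arms, which begins at position -144 from the start that the table uses. That start lies inside the gene record of Zbtb40, which holds several transcripts, and not at the record's outer end. That motif was looked for only after the window had been read, and 18 of all windows (0.0538%) hold it. Zbtb40 also had 16 CG dinucleotides and a GC content of 57%, against 2 to 5 dinucleotides and 43% to 45.3% in the other 3 windows, where the median window has 7 and 51.7%. The annotated record of Taar1 begins at its ATG, so its window lies upstream of coding sequence and not of a mapped transcription start. A match of letters is a description, and no match says only that the letters are not in this window.

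The families of the 5 genes were next examined in T+E2 minus Control, with the 5 genes left out. In 7 functional lists with 199 measured genes, 9 genes were called, and 3.23% of all genes were called (1.76% higher, 1.47% lower). At an unadjusted p below 0.05 there were 16.6% of the family genes and 17.9% of all genes. The cyclic GMP list, which holds the other guanylyl cyclases, their activating proteins, phosphodiesterases and channels, had 0 of 34 genes called by limma, and 6 were at an unadjusted p below 0.05. Their differences ran from -0.54 to 0.57 with a median of 0.03, and the median of all genes was 0.01. In the adhesion receptor family 0 of 16 rose and 1 fell, 7 were at an unadjusted p below 0.05 (3 higher), and the median was 0.07. The fallen gene was the latrophilin Adgrl1, at 7.02 ± 0.28 in Control and 6.46 ± 0.09 in T+E2 (SD, n = 4 each, limma adjusted p = 0.0158), and its call ended without T+E2 replicate 2 (adjusted p = 0.0547). The ZBTB family had 0 of 41 genes called by limma (2 at an unadjusted p below 0.05), with differences from -0.38 to 0.41 and a median of 0.03.

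Among the relatives of Syt10, 2 of 26 synaptotagmin family genes rose, 1 fell and the median was 0.02. Syt7, a slow calcium sensor of exocytosis, differed by 0.52, Syt16 by 0.41 and Syt9 by -0.47 (limma adjusted p = 0.0423, 0.0471 and 0.0422). These calls were unstable: that of Syt16 was kept only without Control replicate 3 and ended without any of the other 13 arrays (adjusted p = 0.0516 to 0.134). That of Syt9 was kept only without Control replicate 1 or 3 or T+low BPA replicate 3 and ended without the other 11 (0.0501 to 0.107). That of Syt7 was kept only without Control replicate 1, T+E2 replicate 1, T+low BPA replicate 1 or T+high BPA replicate 3 and ended without the other 10 (0.0513 to 0.121). In the list of SNARE proteins and exocytosis machinery, 2 of 38 rose and 0 fell, with a median of -0.03. Stx3, an apical membrane syntaxin, rose from 8.88 ± 0.08 to 9.34 ± 0.07 (SD, n = 4 each, limma adjusted p = 0.00716). Rab27b, a GTPase that tethers secretory vesicles, rose from 8.91 ± 0.10 to 9.45 ± 0.17 (adjusted p = 0.0199, or 0.0507 without T+E2 replicate 2). The Rab27b means in T+low BPA and T+high BPA were 9.36 ± 0.06 and 9.38 ± 0.27 (n = 3 each), close to that of T+E2, but their differences from Control were not called (adjusted p = 0.332 and 0.358). Those of Stx3 were 8.81 and 8.88.

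Trace amine receptors showed 2 further rises, both in the direct neighbours of Taar1. Of 16 measured family members 2 rose and 0 fell, and the median was 0.13. Taar3 was at 4.61, 4.14, 4.04 and 4.35 in Control and at 5.38, 5.92, 5.05 and 5.46 in T+E2, with no overlap. It rose by 1.17 ± 0.17 (SE, limma adjusted p = 0.00139), a 2.25-fold change. Taar2 was at 4.11, 3.66, 3.51 and 3.77 in Control and at 4.34, 4.32, 4.31 and 4.25 in T+E2, again without overlap. It rose by 0.54 ± 0.11 (SE, limma adjusted p = 0.0196), and leaving out Control replicate 2, Control replicate 3 or T+E2 replicate 2 ended this call (0.0523 to 0.065). A filter on dim genes removed both receptors from the test. In genome order Taar2 is the next measured gene to Taar1 and Taar3 the one after it, so the size of the difference did not fall evenly along the run (3.52, 0.54 and 1.17). Taar4, the next, differed by 0.18 (95% interval -0.06 to 0.43, adjusted p = 0.439), and the 13 receptors beyond it by -0.16 to 0.30, with 0 called. On the other side of Taar1, Vnn1 and Vnn3, which encode pantetheinases, differed by 0.23 and -0.73 (adjusted p = 0.401 and 0.0622). Taar2 and Taar3 were not called in the BPA groups, where they differed from Control by -0.12 to 0.10. The receptors are related in sequence, and whether the Taar2 and Taar3 probes respond to Taar1 RNA was not tested.

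**Figure D3:**
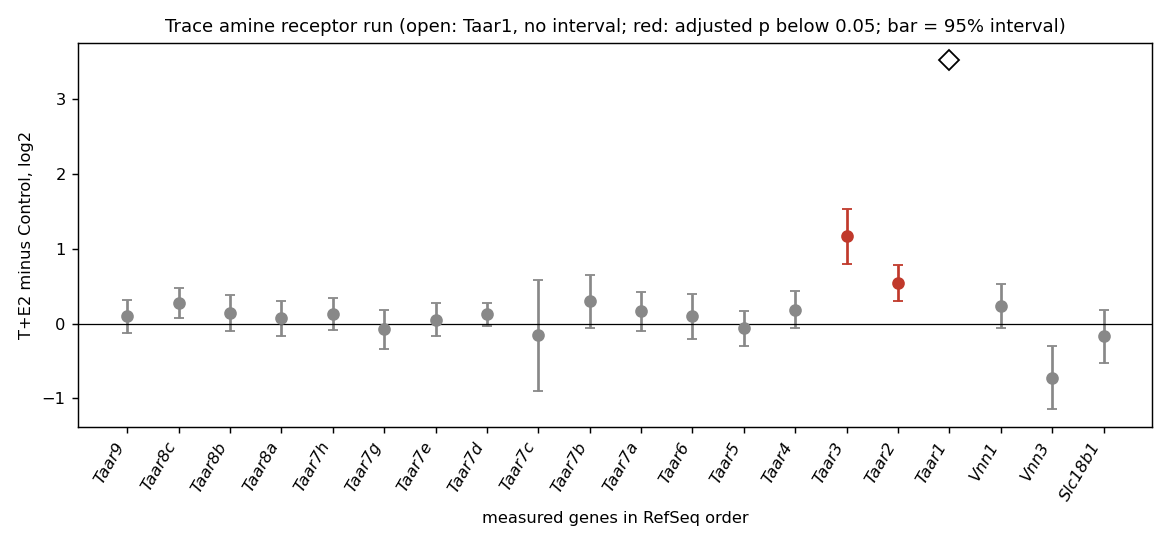
Difference T+E2 minus Control on the log2 scale (y axis) for the measured trace amine receptor genes and the 3 genes after them, in RefSeq order (x axis), with limma's 95% intervals as bars. Taar1, drawn open and without an interval, stands at 3.52, followed by Taar3 at 1.17 and Taar2 at 0.54, while the other receptors lie between -0.16 and 0.30.

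Among 28 measured genes of monoamine synthesis, transport and reception, 1 rose and 0 fell, with a median of 0.05. That gene, Slc18a1, encodes a vesicular transporter that loads monoamines into secretory vesicles of endocrine cells. It was at 6.05, 6.05, 5.89 and 5.65 in Control and at 8.64, 7.50, 8.70 and 8.01 in T+E2. The groups did not overlap, and the gene rose 4.93-fold (2.30 ± 0.21 on the log2 scale, SE, limma adjusted p = 2.28e-05), a call kept without any single array. In T+low BPA it was at 5.89, 6.14 and 6.29 and in T+high BPA at 6.12, 5.96 and 5.91, and neither differed from Control by the test (adjusted p = 0.881 and 0.947). In the same lists limma called 0 of 199 genes in T+low BPA and 0 in T+high BPA, where 24 and 17 (12.1% and 8.54%) were at an unadjusted p below 0.05, against 7.59% and 8.64% of all genes.

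The nearest measured genes in the genome were then compared, 3 on each side of each of the 5 genes, 30 in all. Their order is that of the RefSeq table of GRCr8, and genes without a measurement can lie between. Of these, 5 were called in T+E2 minus Control, of which 4 rose and 1 fell, or 16.7% against 3.23% of all genes, with trace amine receptor genes counted here again. Besides Taar2 and Taar3 these were Vsig1 and Acsl4 on the sides of Gucy2f, and Kif21a beside Syt10. Vsig1 lay 1079 kb from Gucy2f with 9 unmeasured genes between, and Kif21a 1142 kb from Syt10 with 6. Acsl4 lay 135 kb from Gucy2f with 1 unmeasured gene between. The immediate measured neighbours of Gucy2f did not follow it: Irs4, an insulin receptor substrate, differed by 0.06 and Nxt2, an RNA export factor, by -0.11 (limma adjusted p = 0.832 and 0.794). Vsig1, an adhesion protein of stomach epithelium and the third measured gene away, was at 5.50, 5.19, 5.44 and 5.42 in Control and at 7.07, 7.94, 8.09 and 7.57 in T+E2. It rose by 2.28 ± 0.18 (SE, adjusted p = 6.98e-06), and the genes between it and Gucy2f that were measured, Irs4 and Col4a5, did not. Acsl4, a fatty acid ligase, fell by 0.55 (adjusted p = 0.0155, or 0.0509 to 0.0535 without Control replicate 3 or T+E2 replicate 4). Kif21a, a kinesin, rose by 0.68 (adjusted p = 0.002), and the measured genes nearest to Syt10, Rabl2 and Alg10, differed by 0.01 and 0.25 (adjusted p = 0.982 and 0.397). In T+low BPA and T+high BPA, Kif21a differed from Control by 0.56 and 0.32 and Acsl4 by 0.57 and 0.44. Vsig1 differed there by -0.01 and -0.13, and none of these differences was called (limma adjusted p = 0.12 to 0.99). None of the 6 neighbours of Adgrg7 or the 6 of Zbtb40 was called. Tmem45a2 and Tfg, on either side of Adgrg7, differed by -0.60 (adjusted p = 0.15) and -0.08, and Epha8 and Wnt4, on either side of Zbtb40, by 0.10 and 0.08.

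**Figure D4:**
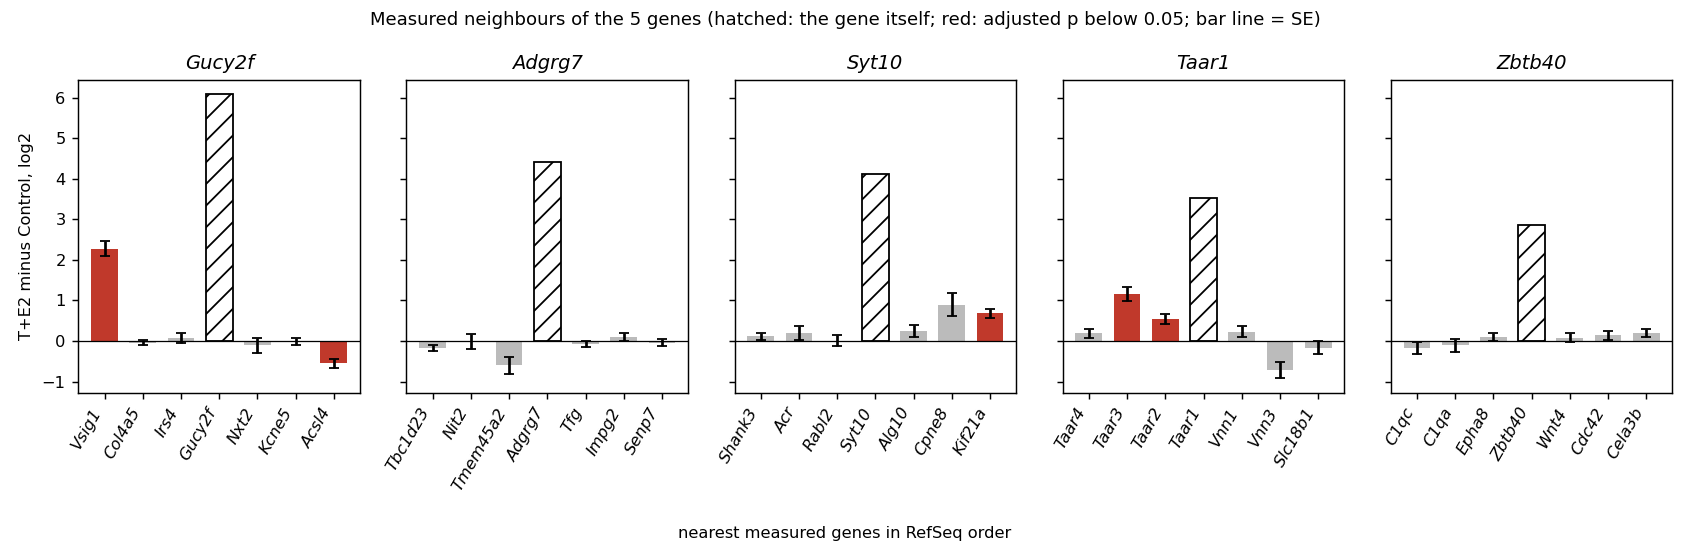
Difference T+E2 minus Control on the log2 scale (y axis) of each of the 5 genes (hatched bar) and of the 3 nearest measured genes on either side in RefSeq order (x axis), with SE as bar lines and called genes in red. The called neighbours are Vsig1 (2.28), Taar3 (1.17), Kif21a (0.68), Taar2 (0.54) and Acsl4 (-0.55).

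Markers of other cell types were compared between T+E2 and Control, where 3.23% of all genes were called and 17.9% were at an unadjusted p below 0.05. Of 18 photoreceptor genes 0 were called by limma and 2 were at an unadjusted p below 0.05, with differences from -0.33 to 0.23. The mean of the list ranged from 5.23 to 5.36 on Control arrays and from 5.25 to 5.44 on T+E2 arrays. Of 19 neuron and ganglion genes 0 were called and 2 were at an unadjusted p below 0.05, with list means of 5.14 to 5.34 (Control) and 5.14 to 5.68 (T+E2). Of 9 neuroendocrine genes 1 was called, the prohormone convertase Pcsk1, higher by 0.78 (limma adjusted p = 0.0369), a call that ended without any of 8 arrays (0.0509 to 0.092). Its list means were 4.83 to 5.03 (Control) and 4.84 to 5.08 (T+E2). Of 11 goblet cell and mucus genes 2 rose: Clca1 from 8.24 ± 2.16 to 13.21 ± 0.06 and Agr2, a disulfide isomerase of mucus secretion, from 8.89 ± 0.29 to 11.58 ± 0.33 (SD, n = 4 each, adjusted p = 0.00218 and 0.000203). The mean of that list spanned 6.46 to 7.28 (Control), 7.36 to 7.54 (T+E2), 6.39 to 6.59 (T+low BPA) and 6.48 to 6.57 (T+high BPA). In this mean every T+E2 array lay above all others, but the genes did not rise as a set. Clca1 differed by 4.97 and Agr2 by 2.69, while the list median was 0.12 and 8 of 11 genes lay above 0. Muc13 and Spdef, not called, differed by -0.97 and -0.42. Agr2 was also at 10.42, 10.47 and 8.71 in T+high BPA, where the highest Control array was at 9.18, but its difference from Control was not called. In T+low BPA it was at 7.62 to 8.12. Of 13 enterocyte genes 1 rose, the galectin Lgals4, by 1.58 (adjusted p = 0.0204), although T+E2 replicate 1, at 6.84, lay below Control replicate 1. That call ended without Control replicate 2, Control replicate 3, T+E2 replicate 2 or T+E2 replicate 4 (0.0553 to 0.0679), and the list means were 5.28 to 5.80 (Control) and 5.54 to 5.69 (T+E2). Among the other lists, limma called 3 of 9 smooth muscle and 2 of 9 basal epithelium genes lower and 1 of 7 seminal vesicle genes higher. At an unadjusted p below 0.05 these lists had 6 (0 higher), 6 (2 higher) and 3 (2 higher). Called were 0 of 12 immune, 0 of 8 ventral prostate, 0 of 9 lateral and dorsal prostate and 0 of 15 skeletal muscle genes (1, 2, 4 and 0 at an unadjusted p below 0.05). The calls of smooth muscle, basal epithelium and seminal vesicle genes also ended without single arrays, in 3 of 14 cases for Svs3a, 4 for Cnn1, 5 for Actg2 and Tp63 and 9 for Tagln and Krt15. The part of goblet cell and gut genes in the levels of the 5 genes was not tested. No other tissue was analysed here, so the word ectopic cannot be checked against the usual sites of expression.

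Control replicate 1, which stood out for Adgrg7, was also the highest Control array for Clca1, Ccl25 and Lgals4 and for the means of 8 of the 19 lists: goblet, enterocyte, immune, neuron and ganglion, neuroendocrine, seminal vesicle, cyclic GMP and monoamine genes. Being highest for many lists was not particular to it. Control replicate 4 was highest for the synaptotagmin, exocytosis, trace amine, ZBTB, photoreceptor, ventral prostate and lateral and dorsal prostate lists. Clca1 was at 10.85 in Control replicate 1 and at 8.71, 7.74 and 5.65 in the other Control arrays. Ccl25 was at 5.27 against 4.14, 3.97 and 4.17, and Lgals4 at 7.16 against 6.01, 6.15 and 6.02. Among its list means were 7.28 for goblet, 5.80 for enterocyte and 8.35 for immune genes. The same array was within the range of the other Control arrays for Gucy2f (4.04), Taar1 (5.35) and Agr2 (9.10), the lowest for Syt10 (4.88) and 0.01 above the next for Zbtb40 (6.45). The part of these genes in the Adgrg7 value was not tested. The 3 genes were looked at in this array after its Adgrg7 value had been seen.

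The genes whose values were most like those of the 5 were found by Pearson's r over the 14 arrays, as a measure of likeness and with no test. Because all the arrays share the same split between 4 T+E2 and 10 other arrays, that split sets most of r, which was 0.949 to 0.988 among the 5 genes themselves. The nearest gene to Gucy2f was Gng12, a G protein gamma subunit (r = 0.994), at 9.55 ± 0.05 in Control and 10.82 ± 0.15 in T+E2 (SD, n = 4 each). Syt10 and Taar1 were nearest to the olfactory receptor gene Or51k1 (r = 0.989 and 0.987), with means of 4.83 ± 0.19 (Control) and 7.09 ± 0.19 (T+E2). Adgrg7 was nearest to Ccl25 (r = 0.988) and Zbtb40 to Tfcp2l1, a transcription factor (r = 0.987). Of the 5 nearest genes of each, Ccl25 was shared by 4 of the 5 lists, and Gng12, Or51k1 and Or51q1 by 3. By Spearman's rank correlation, which weighs the order of arrays within each side of the split, 0 of the 5 nearest genes were the same for Gucy2f, Adgrg7, Syt10 and Zbtb40, and 1 for Taar1.

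**Figure D5:**
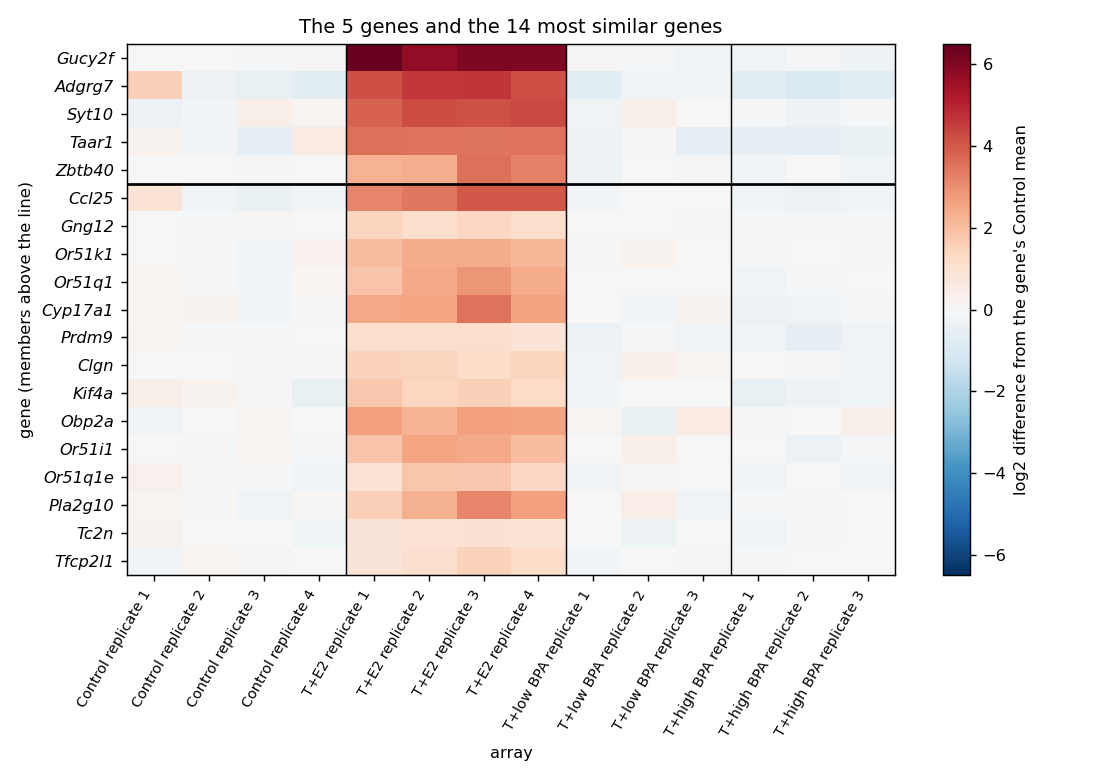
Log2 difference of each array (x axis) from the gene's Control mean (colour) for the 5 genes above the line and the 14 genes found among their nearest by Pearson's r below it (y axis). The 4 T+E2 columns are raised in every row, and Adgrg7 and Ccl25 are also raised in Control replicate 1.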

How the data were processed

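The authors deposited log2 expression values, and the submitters' processing notes name RMA; no source used here gives an RMA version, a probe set definition or a genome build. Of 17802 probe sets, 16134 carried 1 gene symbol, 0 several and 1668 none. Symbols came from the platform annotation, and 3107 were updated through the gene number and RefSeq's table of assembly GRCr8, which matched 16008. No value was filtered. limma 3.58.1 in R 4.3.3 fitted 1 coefficient per group over 14 arrays (10 residual and 4.13 prior degrees of freedom). Two-sided p-values were adjusted over 16134 genes per comparison by Benjamini-Hochberg, and a gene was called at an adjusted p below 0.05. The number of arrays limits the precision, and the tests rest on the spread among 3 or 4 rats a group. The fit was tested on simulated data.

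The 5 genes and the lists were chosen with earlier results of these data known. Named by rule were the 5 genes, up to 4 called genes of each functional list, called or adjacent neighbours, and the 5 nearest genes by Pearson's r. The lists of exocytosis, cyclic GMP, monoamine and receptor family genes and 12 lists of cell markers were written by hand. Of 19 same-numbered pairs of arrays from different groups, 14 had deviations from the group means that correlated above 0.1 (median 0.166). Between Control and treated arrays these were 6 of 10 pairs, with correlations from -0.464 to 0.444. Same-numbered arrays of T+high BPA all passed that mark with T+low BPA (0.102 to 0.255) and with T+E2 (0.139 to 0.435). Those of T+E2 with T+low BPA ran from -0.025 to 0.270. Of 54 differently numbered pairs 11 also passed it, up to 0.644 (median -0.020). Same-numbered pairs thus passed it more often, and whether arrays were paired by number was not settled. A block by replicate number changed no call of the 5 genes. Alternatives covered filtering, normalization, the fit, array weights, the replicate block and leaving out each array.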

Additional observations from a re-analysis of the deposited data

Results flagged for a closer look

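Adgrg7 in Control replicate 1 was at 7.04 on the log2 scale, while the other Control arrays were at 4.79 to 5.11. The gap to the next array was 0.859 of the group's range, above Dixon's 95% critical value for a group of this size. Of 10 groups of 4 arrays examined for the 5 genes, this was the 1 that stood out. Only the highest array of each group was examined. Chance marks about 1 group in 20 when both ends are examined, and fewer with the high end alone.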

How the results depend on the processing

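The 5 differences T+E2 minus Control kept their size within the spread between arrays under all settings, from 2.63 to 3.07 for Zbtb40 and from 5.97 to 6.20 for Gucy2f when single arrays were left out, with Adgrg7 at 4.18 to 4.93, Syt10 at 4.01 to 4.25 and Taar1 at 3.34 to 3.69. In the 3 BPA comparisons 0 of the 5 genes were called under any setting. Small differences changed sign. Syt10 in T+low BPA minus Control was -0.0014 under quantile normalization and -0.081 with array weights, and -0.10 to 0.17 without single arrays. Adgrg7 there was -0.64 to 0.11 without single arrays. Zbtb40 in T+high BPA minus T+low BPA was 0.045 under quantile normalization, 0.018 when centred on array medians, 0.035 with array weights and -0.0996 to 0.0892 without single arrays, and Gucy2f there was 0.042 under quantile normalization.

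Of the 9 family genes called in T+E2 minus Control, the number was 5 with dim genes filtered out, which removes some of them from the test, 4 with only the compared groups fitted, 16 with array weights, 5 without Control 4 and T+E2 2 together (the setting added after the data were seen) and 3 to 9 without single arrays, 3 being without T+E2 replicate 2 and 5 without Control replicate 2. With array weights 2 family genes were called in T+high BPA minus Control. Called neighbours numbered 3 with the dim filter and 3 to 6 without single arrays, 3 being without Control replicate 3. The 521 called genes in T+E2 minus Control became 222 with only the compared groups, 1098 with array weights and 282 to 662 without single arrays. The 3 called genes in T+low BPA minus Control became 5 with all probe sets, 6 under quantile normalization, 0 with only the compared groups, 8 with a trend and robust fit, 31 with array weights, 18 without Control 4 and T+E2 2, and 0 to 14 without single arrays. The 1 among called genes in T+high BPA minus Control became 0 with only the compared groups, 235 with array weights, 60 without Control 4 and T+E2 2, and 0 to 12 without single arrays. The 0 called genes in T+high BPA minus T+low BPA became 18 with only the compared groups, 2 with array weights, 6 without Control 4 and T+E2 2, and 0 to 1 without single arrays. The cause of these changes was not tested. The lowest totals came without T+E2 replicate 4 (T+E2 minus Control), and the highest totals of the BPA groups minus Control without Control replicate 4. The replicate block ended the calls of Syt7 and Syt16 (adjusted p = 0.0671 and 0.0571), raised those of the exocytosis list from 2 to 4 and of the adhesion receptors from 1 to 2, and moved none of the totals above by more than 1.5 times.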
